A study of Mus musculus with 12 samples.

Results

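Accessible chromatin of day 2 progenitors was compared with that of day 4 cells in which no Hox transgene had been induced. Accessibility was measured by ATAC-seq, in which a transposase cuts and tags open DNA, and the deposited data are lists of accessible domains without heights or read counts. A gained domain was a domain of the day 4 list, 150 bp or wider, that overlapped no progenitor domain of any width by even 1 bp, and a lost domain was the reverse. By this rule 8594 of 45088 day 4 domains were gained, which is 19.1%, and 6646 of 41544 progenitor domains were lost, which is 16%. These 15240 domains stand beside 482514 domains in all 6 lists of the series, of which 234412 were 150 bp or wider.

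Mouse embryonic stem cells were grown as embryoid bodies (EBs) and patterned with 1 µM retinoic acid (RA) and 0.5 µM SAG, an agonist of the Hedgehog receptor Smoothened. The progenitors came from the Ainv15(iCre) line after 2 days of RA and SAG. The uninduced cells, called no Dox here, came from the Ainv15(iFlag.Hoxc6) line after 4 days of RA and SAG, and they carried the silent Flag-Hoxc6 transgene but received no doxycycline (Dox). Lists that the rule did not use were those of EBs before patterning, from Ainv15(iCre), and of the induced day 4 groups iHoxc6, iHoxc9 and iHoxc10, each from its own Ainv15 line with RA and SAG for 4 days and 3 µg/mL Dox for the last 48 h. With 2 samples in each of the 6 groups, both merged into 1 list, no value had a replicate error and no difference could be tested. Intervals in parentheses are 95% Wilson intervals that cover the counting of domains only.

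The 2 lists differ in more than the stage. The no Dox list has additional constant columns, a name with another day than its label, and neighbouring domains as close as 37 bp, whereas the closest domains of the progenitor list lie 103 bp apart and those of the other 4 lists 201 bp apart. It was called separately, its name carries the value p0.05, which no other list's name does, its other settings are not given in the sources used here, and its samples were added to the series later. The progenitor list held 87916 domains over 25.7 Mb with a median width of 138 bp, and the no Dox list 88806 domains over 29.75 Mb with a median width of 155 bp. Cell line, sequencing series and calling cannot be told apart from stage in this comparison. In a culture of several cell types, a domain open in fewer cells and a domain less open in each cell cannot be told apart either.

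As background, RA and Hedgehog signalling together turn neural cells of EBs into ventral spinal cord progenitors, which divide and are held in an undifferentiated state by SoxB1 factors and Notch signalling. Proneural basic helix-loop-helix (bHLH) factors, which bind E-boxes, then drive cell cycle exit, and the newborn motor neurons and interneurons switch on factors such as Onecut, Ebf and LIM homeodomain proteins. Sites that open during such steps mostly lie far from promoters, in enhancers, and carry the motifs of factors active in the new cells.

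Of the markers of either stage, most had a promoter domain in both lists, where the value is the widest domain within 1 kb of a transcription start site (TSS). Among progenitor markers, the widest promoter domain of Olig2 was 931 bp in progenitors and 1366 bp without Dox, that of Nkx6-1 1231 and 3187 bp, of Sox1 2583 and 2293 bp, of Pax6 2761 and 3002 bp, and of the Notch target Hes5 1217 and 1311 bp. Among neuronal markers, the LIM homeodomain gene Isl1 had 883 bp in progenitors and 977 bp without Dox, the motor neuron gene Mnx1 455 and 1707 bp, Lhx3 416 and 186 bp, Tubb3, a neuronal tubulin, 749 and 1235 bp, Stmn2, a microtubule regulator of axons, 458 and 2743 bp, and Elavl4, a neuronal RNA-binding protein, 892 and 2824 bp. These 5 progenitor markers thus had a promoter domain in both lists, and all of them but Sox1 had a wider one without Dox. Of the 6 neuronal markers all but Lhx3 had a wider domain without Dox. Wider domains without Dox were thus not particular to neuronal markers, and the no Dox list had the larger median width, 155 bp against 138 bp. The stem cell factors Pou5f1 and Nanog had promoter domains of 687 and 623 bp in EBs and none in the progenitor or no Dox list. Promoter domains of 150 bp or wider were held by 24 of 35 genes of mesoderm, endoderm and other germ layers in progenitors and 23 without Dox, and by 12 of 19 genes of glia and neural crest in both. Their part in the gained and lost classes was not tested.

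Sequences at genes of neurons and of progenitors are shown first, to give the DNA that the counts below describe. All are from the plus strand of GRCm38.p6 (RefSeq), which is mm10. The following are the central 200 bp of the 6 widest gained domains that all 3 induced lists also held and whose nearest TSS, within 100 kb, belonged to a gene of motor neuron identity, a neuronal transcription factor or a pan-neuronal gene. Capitals mark the motifs, with a mean share of 0.4% or more over both classes, that were at least 1.5 times as frequent in gained as in lost domains (the proneural E-box CAGCTG, the E-box CAGATG of Neurog and Neurod factors, the E-box CATATG of Olig2, the Onecut motif ATCAATA, the Ebf motif CCCNNGGGA and the Cdx motif CCATAAA, on either strand).
Lhx4, chr1:155751689-155751888: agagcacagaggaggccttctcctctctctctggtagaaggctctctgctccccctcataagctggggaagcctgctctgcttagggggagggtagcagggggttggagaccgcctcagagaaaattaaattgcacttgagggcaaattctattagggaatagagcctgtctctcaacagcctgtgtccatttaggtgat
Myt1, chr2:181766969-181767168: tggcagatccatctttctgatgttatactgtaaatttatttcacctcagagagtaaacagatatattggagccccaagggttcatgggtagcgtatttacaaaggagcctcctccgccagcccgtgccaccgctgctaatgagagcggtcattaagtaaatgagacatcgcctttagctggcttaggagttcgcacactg
Lhx3, chr2:26175412-26175611: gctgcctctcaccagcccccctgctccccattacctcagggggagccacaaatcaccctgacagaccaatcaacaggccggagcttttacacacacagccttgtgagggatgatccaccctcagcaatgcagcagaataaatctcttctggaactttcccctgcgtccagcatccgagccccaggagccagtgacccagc
Nefl, chr14:68078973-68079172: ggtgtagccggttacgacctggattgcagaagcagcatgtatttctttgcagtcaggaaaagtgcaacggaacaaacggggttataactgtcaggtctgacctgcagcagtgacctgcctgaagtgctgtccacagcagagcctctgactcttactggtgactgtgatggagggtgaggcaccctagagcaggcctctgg
Rbfox3, chr11:118685570-118685769: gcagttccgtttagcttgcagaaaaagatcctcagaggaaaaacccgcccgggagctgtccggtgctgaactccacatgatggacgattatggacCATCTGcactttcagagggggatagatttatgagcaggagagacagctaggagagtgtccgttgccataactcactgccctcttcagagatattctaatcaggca
Scrt2, chr2:152047323-152047522: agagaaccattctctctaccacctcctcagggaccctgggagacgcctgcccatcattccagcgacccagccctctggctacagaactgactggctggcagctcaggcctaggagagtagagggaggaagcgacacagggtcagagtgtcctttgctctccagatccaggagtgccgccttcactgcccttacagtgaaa
Lhx4 and Lhx3 encode LIM homeodomain factors of motor neurons, Myt1 and Scrt2 zinc finger factors of newborn neurons, Nefl a neurofilament, and Rbfox3 the nuclear antigen NeuN. The Myt1 domain, 736 bp wide, covered a TSS of the gene and lay 1.84 kb from the nearest progenitor domain. The Lhx3 domain lay 30.7 kb from the TSS and 5.91 kb from the nearest progenitor domain, and that of Rbfox3 lay 75.1 kb from the TSS in an intron. Of these 6 centres only that of Rbfox3 held a marked motif.

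The central 200 bp of the 6 widest lost domains that no induced list held, at genes of progenitors, proneural and Notch signalling, caudal and axial timing or pluripotency, are given next. Capitals mark motifs that by the same rule, in both sets of domains, were at least 1.5 times as frequent in lost as in gained domains (Sox ACAATGG, Tead ACATTCC, Gli GACCACCC and the DR2 or DR5 retinoic acid response element).
Tbx3, chr5:119706637-119706836: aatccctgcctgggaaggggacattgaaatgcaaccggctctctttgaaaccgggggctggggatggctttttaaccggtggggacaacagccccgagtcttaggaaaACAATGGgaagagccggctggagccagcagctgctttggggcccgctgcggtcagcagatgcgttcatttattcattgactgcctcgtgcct
Utf1, chr7:139950509-139950708: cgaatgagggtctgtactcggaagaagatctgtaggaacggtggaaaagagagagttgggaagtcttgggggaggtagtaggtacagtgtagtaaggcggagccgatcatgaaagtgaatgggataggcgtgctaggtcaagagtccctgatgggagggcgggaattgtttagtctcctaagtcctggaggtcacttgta
Wnt5a, chr14:28514287-28514486: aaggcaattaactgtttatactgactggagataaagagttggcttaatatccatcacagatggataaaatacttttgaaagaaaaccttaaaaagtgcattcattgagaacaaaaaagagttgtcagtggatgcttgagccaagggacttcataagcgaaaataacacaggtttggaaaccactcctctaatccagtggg
Hey1, chr3:8720911-8721110: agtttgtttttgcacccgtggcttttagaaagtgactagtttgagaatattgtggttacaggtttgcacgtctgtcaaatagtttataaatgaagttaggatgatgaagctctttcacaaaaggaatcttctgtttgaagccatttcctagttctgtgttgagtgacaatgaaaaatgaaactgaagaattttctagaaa
Cdx4, chrX:103287423-103287622: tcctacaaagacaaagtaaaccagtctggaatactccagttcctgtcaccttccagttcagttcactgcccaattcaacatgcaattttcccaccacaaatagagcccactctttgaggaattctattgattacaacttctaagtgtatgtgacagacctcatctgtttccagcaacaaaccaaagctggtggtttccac
Sox3, chrX:60991979-60992178: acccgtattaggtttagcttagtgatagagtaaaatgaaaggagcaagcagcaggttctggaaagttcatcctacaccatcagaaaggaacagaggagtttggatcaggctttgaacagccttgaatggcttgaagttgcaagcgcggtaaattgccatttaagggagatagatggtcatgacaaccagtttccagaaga
Tbx3 and Utf1 are expressed in embryonic stem cells, Wnt5a is a Wnt ligand of the caudal embryo, Hey1 a Notch target, Cdx4 a caudal homeobox gene and Sox3 a SoxB1 factor of progenitors. The Tbx3 and Utf1 domains were also held by the EB list, and the other 4 were not. The Sox3 domain lay 98.4 kb from the TSS and 50.5 kb from the nearest no Dox domain. Only the Tbx3 centre held a marked motif, a Sox match. Motifs of the other class were not capitalised, and there were 2 matches of them in the Tbx3 centre, 1 in that of Wnt5a and 2 in that of Cdx4, against 0 in the 6 gained centres, so that these 12 sites do not show the difference in motif shares.

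To show the motifs themselves, the central 150 bp of the widest domain found with each marked motif are printed below, with the motif that chose the site in its name. Genes of any of the lists were searched, except those already printed, so a site need not be the widest with its motif. These were picked after the motif shares had been seen, from gained domains held by all 3 induced lists and lost domains held by none. No lost domain among those searched carried a DR2 or DR5 element.
Rps3 (CAGCTG), chr7:99474917-99475066: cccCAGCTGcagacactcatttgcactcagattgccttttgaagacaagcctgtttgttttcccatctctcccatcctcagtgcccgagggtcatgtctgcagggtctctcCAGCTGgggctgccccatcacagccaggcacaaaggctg
Hoxd3 (CAGATG), chr2:74746987-74747136: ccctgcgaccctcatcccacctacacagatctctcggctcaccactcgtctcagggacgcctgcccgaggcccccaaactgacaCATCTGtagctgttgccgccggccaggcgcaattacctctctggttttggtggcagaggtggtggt
Mecom (CATATG), chr3:30299833-30299982: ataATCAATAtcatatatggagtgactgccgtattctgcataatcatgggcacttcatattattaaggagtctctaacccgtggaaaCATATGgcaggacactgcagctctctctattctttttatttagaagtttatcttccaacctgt
Sema3d (Onecut), chr5:12366092-12366241: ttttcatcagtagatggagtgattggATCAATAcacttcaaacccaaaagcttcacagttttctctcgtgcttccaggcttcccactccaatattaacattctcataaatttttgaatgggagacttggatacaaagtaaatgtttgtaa
Rdh10 (Ebf), chr1:16173141-16173290: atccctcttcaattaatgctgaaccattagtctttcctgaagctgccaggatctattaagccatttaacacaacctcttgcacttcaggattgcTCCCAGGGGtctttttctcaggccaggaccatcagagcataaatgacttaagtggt
Pou2f2 (Cdx), chr7:25153639-25153788: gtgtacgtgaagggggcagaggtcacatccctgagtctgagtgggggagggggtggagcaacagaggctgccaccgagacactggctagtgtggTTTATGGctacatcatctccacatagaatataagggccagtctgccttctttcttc
Scn2a (Sox), chr2:65606136-65606285: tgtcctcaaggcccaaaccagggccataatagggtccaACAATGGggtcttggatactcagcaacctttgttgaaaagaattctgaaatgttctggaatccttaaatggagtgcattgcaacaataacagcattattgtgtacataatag
Glra1 (Tead), chr11:55601751-55601900: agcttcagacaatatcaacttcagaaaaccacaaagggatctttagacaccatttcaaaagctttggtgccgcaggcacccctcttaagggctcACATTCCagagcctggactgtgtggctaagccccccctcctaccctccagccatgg
Epha3 (Gli), chr16:63945802-63945951: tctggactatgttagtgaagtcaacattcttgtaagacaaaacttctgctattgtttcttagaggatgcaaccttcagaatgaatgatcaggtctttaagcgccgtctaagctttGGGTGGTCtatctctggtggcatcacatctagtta
The Rps3, Hoxd3, Mecom, Sema3d, Rdh10 and Pou2f2 sites were gained and the Scn2a, Glra1 and Epha3 sites lost. Sema3d, which encodes a secreted guidance cue, had its 1120 bp domain 16.7 kb from the TSS and 16.4 kb from the nearest progenitor domain. The Hoxd3 site lay 37 bp from the nearest progenitor domain, so that a shift of its edge would have moved it out of the class.

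The motif content of the classes was compared in the central 150 bp of each domain, for 32 fixed patterns on both strands. The same length was thus searched in each domain, but the classes were not matched for width. E-boxes of the proneural type were the most frequent motifs that set gained apart from lost domains. The E-box CAGCTG was found in 18.1% (17.3 to 18.9) of gained and 9.75% (9.06 to 10.5) of lost windows, against 12.3% of kept no Dox domains and 6.81 and 6.58% of windows 2 kb to each side of gained and lost domains. CAGATG, bound by Neurog and Neurod factors, was found in 19.98% (19.1 to 20.8) and 11.8% (11.0 to 12.6), with 12.1 and 11.6% in the flanks. The CAGATG share of lost domains was thus at the level of its flanks, whereas that of gained domains was above it.

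Motifs of factors of newborn neurons showed the same order. The Onecut motif was found in 4.84% (4.41 to 5.32) of gained and 2.05% (1.73 to 2.42) of lost windows, a ratio of 2.37 (1.95 to 2.86), with 1.80 and 1.97% in the flanks. The Ebf motif was found in 4.28% (3.87 to 4.73) and 2.44% (2.09 to 2.84), and the Cdx motif, whose letters also fit the known preference of posterior Hox proteins, in 3.14% (2.79 to 3.53) and 1.84% (1.54 to 2.19). The CATATG E-box, also bound by Olig2, was found in 3.62% of gained and 2.32% of lost windows, both below their flanks at 4.56 and 4.07%, so it was more frequent in gained than in lost domains without being raised over the surroundings. A Pbx-Hox site was found in 6.0% (5.52 to 6.53) of gained and 4.24% (3.78 to 4.75) of lost windows, and the homeodomain core TAATTA in 7.31% (6.78 to 7.88) and 5.39% (4.87 to 5.96).

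The opposite order was seen for Sox, Tead, Gli and RA response motifs. The Sox motif ACAATGG, bound by the SoxB1 factors of progenitors, was found in 8.19% (7.55 to 8.87) of lost and 3.01% (2.67 to 3.40) of gained windows, with 2.33 and 2.58% in the flanks. The share in lost domains was 2.72 times that in gained domains, and it also exceeded the 5.75% (5.45 to 6.07) of kept progenitor domains over 1 kb from a TSS. Tead, the factor at the end of Hippo signalling, had its motif in 4.83% (4.34 to 5.37) of lost and 2.13% (1.84 to 2.46) of gained windows. The interval of the gained share spans the 2.08% of its flanks. DR2 or DR5 elements, the sites of RA receptors, were found in 47 lost windows, 0.707% (0.532 to 0.939), and in 23 gained windows, 0.268% (0.178 to 0.401). The ratio of 0.378 (0.230 to 0.623) became 0.498 (0.205 to 1.21) between gained domains in all 3 and lost domains in none of the induced lists, and 0.545 (0.246 to 1.21) between those in none, with intervals that reach past 1. Gli sites, through which Hedgehog signalling acts, were found in 57 lost windows, 0.858% (0.663 to 1.11), and 34 gained windows, 0.396% (0.283 to 0.552).

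**Figure D1:**
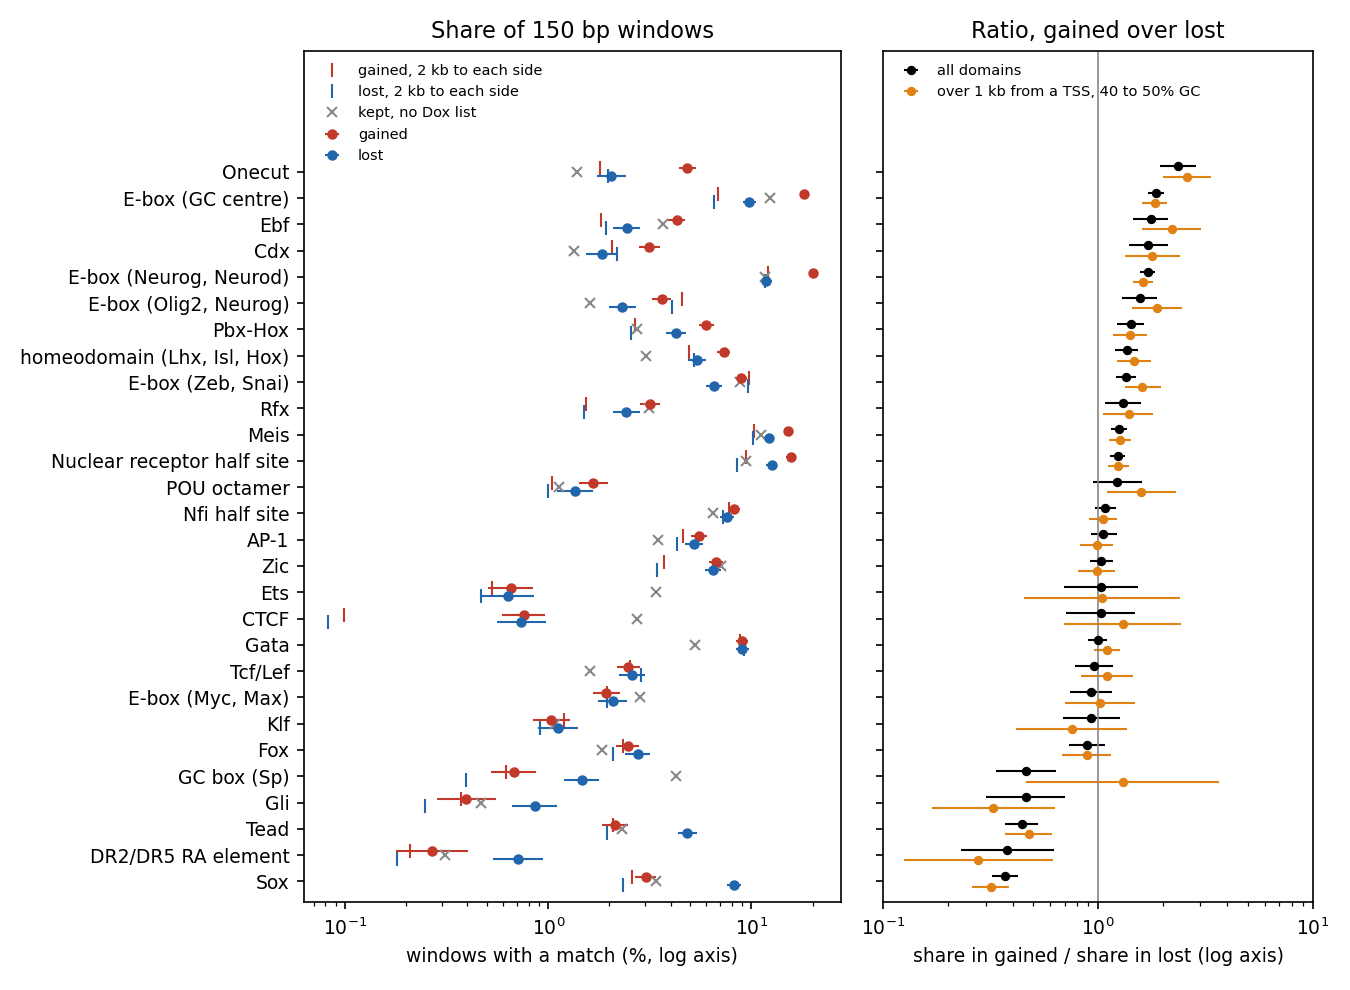
Left, share of 150 bp windows with at least 1 match of a motif (%, log axis) at the centre of gained (red) and lost (blue) domains with 95% Wilson intervals, in windows 2 kb to each side (ticks) and in kept no Dox domains (crosses). Right, ratio of the share in gained to that in lost domains (log axis, 95% intervals from domain counts) for all domains and for those over 1 kb from a TSS with 40 to 50% GC; only motifs with a mean share over both classes of 0.4% or more are drawn, and Onecut, proneural E-boxes, Ebf and Cdx lie to the right of 1 and Sox, RA elements, Tead and Gli to the left.

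The classes were close in base composition. The mean GC content of the windows was 47.6% in gained and 47.3% in lost domains, against 55.8% in kept no Dox domains, and the median CpG ratio (observed over that given by base content) was 0.213, 0.192 and 0.412. Windows with 40 to 50% GC over 1 kb from a TSS had also been used to choose the marked motifs. In them the gained-to-lost ratio was 1.84 (1.61 to 2.10) for CAGCTG, 2.60 (2.00 to 3.37) for Onecut and 0.316 (0.259 to 0.385) for Sox. The GC box of Sp factors was an exception. It was found in 0.675% of gained and 1.46% of lost windows, but in that GC range its ratio was 1.30 (0.463 to 3.65), on the other side of 1. Over all domains, Zic had 6.70 and 6.49%, AP-1 5.51 and 5.19%, and CTCF, which organises chromatin loops, 0.756% (0.594 to 0.963) and 0.737% (0.558 to 0.973). For CTCF the ratio was 1.03 (0.709 to 1.48) over all domains but 3.56 (1.85 to 6.87) between domains gained and held by all 3 induced lists and domains lost and held by none. Between gained and lost domains that were both held by none, it was 1.10 (0.475 to 2.53). Among gained domains alone, the CTCF share was 1.19% where all 3 induced lists held them and 0.367% where none did. CTCF sites were found in 2.73% (2.57 to 2.90) of kept no Dox domains.

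Lists that the rule did not use held the 2 classes to different extents. Of gained domains, 60.6% (59.6 to 61.6) were held by iHoxc6, 37.5% (36.5 to 38.5) by iHoxc9 and 42.3% (41.3 to 43.4) by iHoxc10. Of lost domains the shares were 30.6% (29.5 to 31.7), 11.5% (10.8 to 12.3) and 10.9% (10.2 to 11.7). The induced cells had been cultured for the same time as the no Dox cells, and 45.6% (44.5 to 46.6) of gained domains were held by at least 2 of the 3 induced lists, 23.4% by all 3 and 28.6% (27.6 to 29.5) by none. Conversely, 62.9% (61.7 to 64.0) of lost domains were held by none of them and 3.75% (3.32 to 4.23) by all 3. Kept no Dox domains were held by at least 2 induced lists in 87.5% of cases. Domains held by exactly 1 induced list were mostly held by iHoxc6, in 69.5% of 2224 gained and 77.3% of 1653 lost domains. iHoxc6 shares its line with the no Dox cells and has the longest of the induced lists, with 91181 domains against 63504 and 56232, and the part of line and list length was not tested.

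The EB list held 14.1% (13.4 to 14.9) of gained and 27.2% (26.1 to 28.2) of lost domains, against 68.5% of kept no Dox domains. The 249 lost domains that all 3 induced lists held stood apart from the other lost domains. Of these, 63.9% (57.7 to 69.6) were also held by EBs and 19.3% (14.9 to 24.6) lay at promoters, whereas among the 4180 lost domains that no induced list held the shares were 20.1% (18.9 to 21.3) and 5.00% (4.38 to 5.70). These 249 were absent from the no Dox list alone among the day 2 and day 4 lists.

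**Figure D2:**
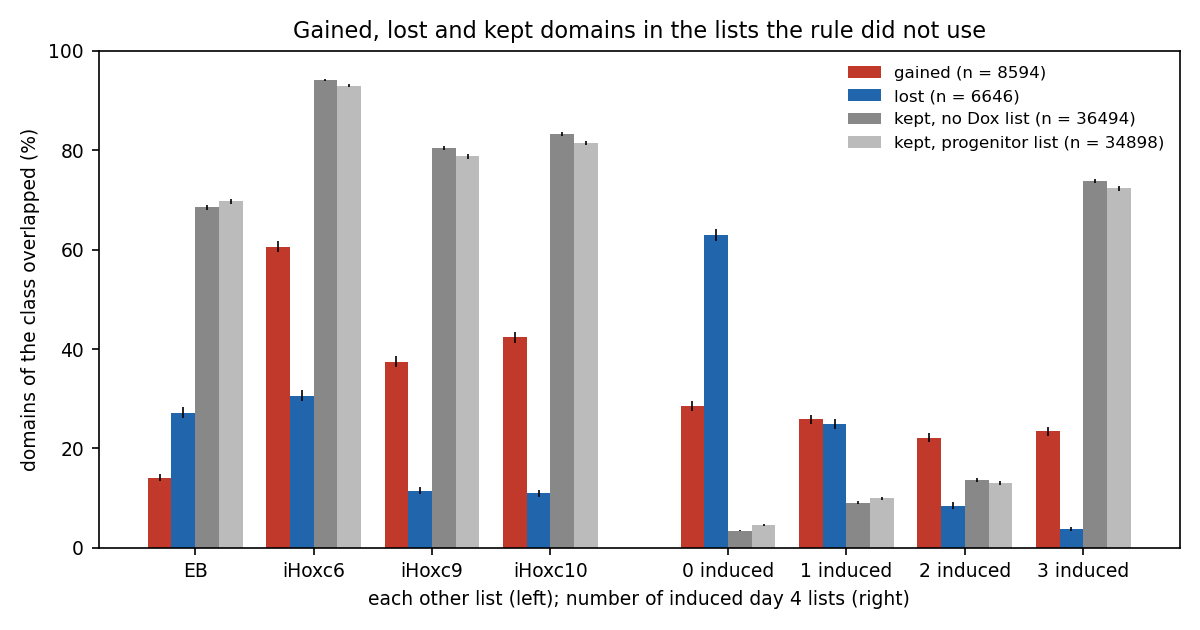
Percent of gained (red), lost (blue) and kept (grey) domains overlapped by each list outside the comparison (left) and held by 0, 1, 2 or 3 of the induced day 4 lists (right), with 95% Wilson intervals. Gained domains were held more often than lost domains by each induced list, and lost domains more often by EBs.

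Motif content varied with this support. Among gained domains held by all 3 induced lists, CAGCTG was found in 21.4% (19.7 to 23.3), Onecut in 6.16% (5.19 to 7.30), Ebf in 6.56% (5.56 to 7.72) and Cdx in 5.46% (4.55 to 6.54). Among gained domains held by none, the shares were 15.1% (13.8 to 16.6), 3.50% (2.85 to 4.31), 3.02% (2.41 to 3.77) and 1.92% (1.44 to 2.54). The Cdx share of the unsupported domains equalled that of their flanks, at 1.956%, while their CAGCTG share stood above its flanks at 7.15%. Induced cells express Hoxc6, Hoxc9 or Hoxc10 in addition, and its part in which gained domains they held was not tested. The median width was 322 bp for gained domains held by all 3 induced lists and 223 bp for those held by none. The part of width in these motif shares was not tested. The Sox share of lost domains was 8.25% (7.46 to 9.13) where no induced list held them.

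Both classes were mostly distal. Within 1 kb of a TSS of a protein-coding gene lay 5.64% (5.18 to 6.15) of gained and 6.76% (6.18 to 7.38) of lost domains, against 36.5 and 38.4% of kept domains of the same lists. Introns held 47.2% of gained and 42.9% of lost domains, and intergenic DNA 39.8 and 42.8%. The nearest TSS was over 100 kb away for 33.4% of gained and 34.4% of lost domains but for 18.3% of kept no Dox domains. The median distance to a TSS was 47.9 kb for gained, 47.4 kb for lost and 10.1 kb for kept no Dox domains. Gained domains lay a median of 5.29 kb from the nearest progenitor domain and lost domains 7.85 kb from the nearest no Dox domain, and 15.2% of gained and 11.8% of lost domains had a domain of the other list within 500 bp. Repeats, read as soft-masked bases, made up over 50% of 3.19% of gained, 4.63% of lost and 1.65% of kept no Dox domains, and of 6.23% of the gained domains that no induced list held. By chromosome, the share of no Dox domains that were gained ran from 12.96% (11.1 to 15.1) on chromosome 19 and 13.8% (11.8 to 16.1) on X to 21.4% (19.9 to 23.0) on chromosome 5. The Y chromosome, with 39 no Dox domains, held none that was gained.

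Width was part of the rule and is a description. Gained domains had a median width of 255 bp and lost domains of 239 bp, against 508 and 468 bp for kept domains. Of the 6519 no Dox domains 150 to 199 bp wide, 35.2% were gained, and of the 12308 domains of 750 bp or more, 1.19% were. For progenitor domains of these widths, 33.7 and 0.349% were lost. Just inside the limit, at 150 to 159 bp, 30.4% of 1318 no Dox domains and 31.0% of 1301 progenitor domains overlapped nothing in the other list, and just outside it, at 140 to 149 bp, 37.3% of 2018 and 31.7% of 2012. The share of gained domains held by at least 2 induced lists was 33.6% (31.7 to 35.5) at 150 to 199 bp and 86.4% (79.9 to 91.0) at 750 bp or more. Held here means an overlap of at least 1 bp, which a wider domain meets more easily, and the part of this was not tested. The share of lost domains held by no induced list was 66.1% (64.0 to 68.1) at 150 to 199 bp and 42.9% (28.0 to 59.1) at 750 bp or more, the latter over 35 domains.

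**Figure D3:**
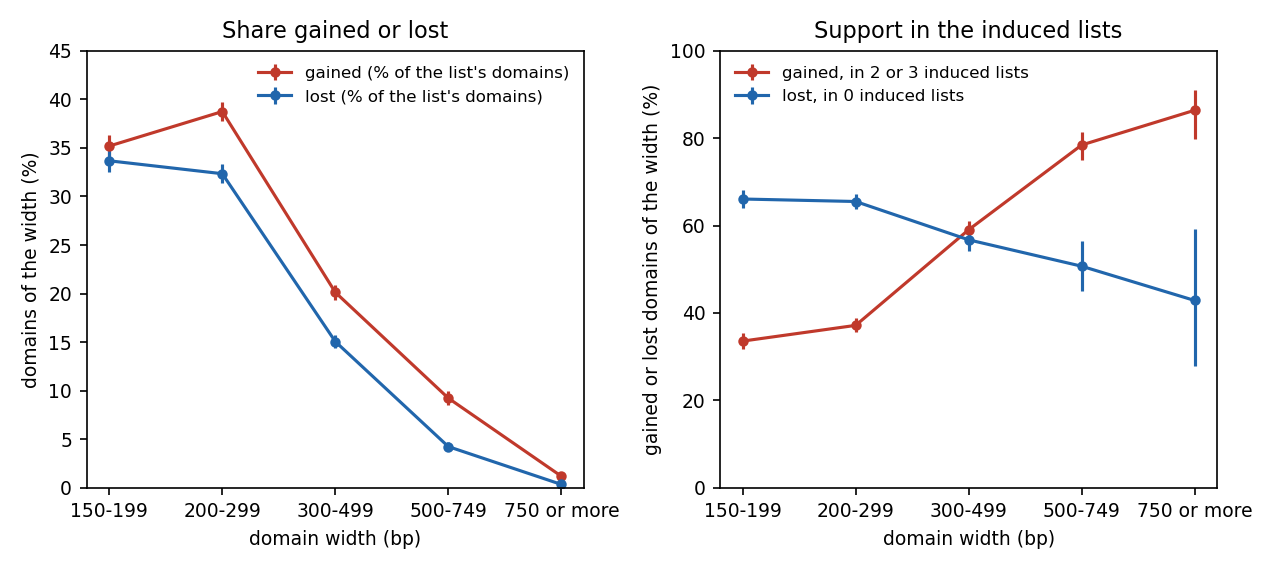
Left, percent of the no Dox domains of a width that were gained (red) and of the progenitor domains of a width that were lost (blue). Right, percent of gained domains held by 2 or 3 induced lists and of lost domains held by none, by width in bp; error bars are 95% Wilson intervals, and support rises with width for gained domains while fewer of the wide lost domains are missing from every induced list.

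The widest gained domain, 1894 bp at chr15:72808879-72810772, overlapped an exon and lay 26.5 kb from the nearest progenitor domain, with Trappc9 as the nearest protein-coding gene. It was held by iHoxc6 and iHoxc9. The next 4 lay nearest to Pank3 (1687 bp), Hdac2 (1599 bp), 1700025G04Rik (1361 bp) and Themis3 (1285 bp), all over 1 kb from a TSS, and were held by 2 or 3 induced lists. The widest lost domain, 1265 bp at chr2:174284182-174285446, covered a TSS of Gnas, an imprinted gene for a G protein subunit, and was held by EBs but by no induced list. A no Dox domain lay 110 bp from its edge. The next 4 lay nearest to Olfr448 (1090 bp), Stac (1067 bp), Lrrn4 (1063 bp, promoter) and Ch25h (1062 bp), each held by at least 1 induced list.

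Each domain was assigned to the nearest protein-coding TSS within 100 kb. Of 21827 protein-coding genes, 3937 (18%) had at least 1 gained and 3451 (15.8%) at least 1 lost domain, and 1240 had both. The median over all these genes was 0 gained and 0 lost domains. At these genes 16.1% (15.7 to 16.5) of no Dox domains were gained and 13.2% (12.9 to 13.6) of progenitor domains were lost, and 21 gene lists were set beside these shares. The lists had been drawn up with earlier results of these data known and are descriptions.

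Genes of neurons were among the lists with the highest shares of gained domains. Of 36 pan-neuronal genes, which encode cytoskeletal, RNA-binding and vesicle proteins, 25 had a gained and 11 a lost domain, with 56 of 211 no Dox domains gained, 26.5% (21.0 to 32.9), and 21 of 170 progenitor domains lost, 12.4% (8.22 to 18.2). The median was 1 gained and 0 lost domains per gene. Nrxn3, a synaptic adhesion protein, had 9 gained and 5 lost domains, Elavl4 5 and 0, Rbfox3 4 and 0, and Chga, a vesicle protein, 3 and 1. Of the 5 gained domains of Elavl4, 2 were held by at least 2 induced lists.

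Of 27 transcription factors of newborn neurons, 21 had a gained and 8 a lost domain. Gained were 47 of 187 no Dox domains, 25.1% (19.5 to 31.8), and lost 12 of 138 progenitor domains, 8.70% (5.04 to 14.6). Ebf3 had 8 gained domains among 17 and none lost, and 5 of the 8 were held by at least 2 induced lists. Pou2f2 had 4 gained among 7 domains, Pou3f3 4 among 12, and Myt1 2 among 6. Onecut1 and Onecut2, whose motif was frequent in gained domains, had 1 gained domain each, and Ebf1 and Ebf2 had none.

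Motor neuron genes were similar with fewer domains. Of 18 genes of motor neuron identity, 9 had a gained and 7 a lost domain, and 16 of 69 no Dox domains were gained, 23.2% (14.8 to 34.4), an interval that spans the share of all genes. With a TSS within 20 kb the share gained was 23.4% (13.6 to 37.2), against 11.7% for all genes. With no limit on distance it was 28.7% (20.8 to 38.2), against 19.1%. Lhx3 had 4 gained among 6 domains, and all 4 were held by at least 2 induced lists. They were 709, 610, 189 and 257 bp wide and lay 30.7, 23.6, 15.9 and 7.68 kb from the TSS, while the promoter domain of Lhx3 was 416 bp wide in progenitors and 186 bp without Dox. Lhx4 also had 4 gained domains, Mnx1 had 1 of 727 bp in an exon, and Isl1 had none. Of 18 genes of motor columns and pools, 16 had a gained and 9 a lost domain. These genes had a median of 5 no Dox domains, against 1 for all genes, and the part of this in the gene counts was not tested. By domains, 29 of 117 no Dox domains were gained and 16 of 94 progenitor domains lost. Of the 29 gained domains, 10 were held by at least 2 induced lists, against 2492 of 5727 for all genes. Foxp1, a factor of limb-innervating motor neurons, had 6 gained and 2 lost domains, and Mecom had 3 gained and 5 lost.

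Lists tied to the patterning signals also lay above the share of all genes. Of 24 RA response genes, 21 had a gained and 12 a lost domain, with 36 of 142 no Dox domains gained, 25.4% (18.9 to 33.1), and 21 of 118 progenitor domains lost, 17.8% (11.9 to 25.7). Of the 12 genes with a lost domain, 11 also had a gained one. Meis2, a homeodomain factor, had 5 gained and 1 lost domain, and the receptor genes Rara and Rarb 3 and 0 and 1 and 0. The degrading enzyme gene Cyp26c1 and the retinaldehyde reductase gene Dhrs3 had 1 gained and 3 lost each, and the carriers Crabp1 and Crabp2 and the retinol transporter Stra6 had 1 gained and 2 lost each. Stra6 had a promoter domain of 305 bp in EBs, 457 bp in progenitors and 43 bp without Dox, and none in the induced lists. Of 18 Hedgehog pathway genes, 11 had a gained and 8 a lost domain, and 23 of 91 no Dox domains were gained, 25.3% (17.5 to 35.1), but 5 of the 23 were held by at least 2 induced lists, against 2492 of 5727 for all genes. Ptch1, the Hedgehog receptor, had 5 gained and 2 lost domains, and its promoter domain was 3712 bp wide in progenitors and 2481 bp without Dox. That of its target Gli1 was 3320 and 770 bp wide.

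At progenitor genes the share of domains that were lost had intervals that span that of all genes. Of 25 neural progenitor genes, 12 had a gained and 12 a lost domain, and 17 of 129 progenitor domains were lost, 13.2% (8.39 to 20.1). For 18 ventral progenitor factors the share lost was 16.8% (11.0 to 24.8), for 33 proneural and Notch genes 10.8% (6.77 to 16.8), and for 35 cell cycle genes 6.45% (2.99 to 13.4). Sox3 had 3 lost and no gained domains, Pax3 3 lost and 1 gained, and Hes1 1 of each. Higher shares were found for 29 pluripotency genes, with 14 of 55 progenitor domains lost, 25.5% (15.8 to 38.3), of which 11 were held by no induced list. Gained at the pluripotency genes were 11 of 54 no Dox domains, 20.4% (11.8 to 32.9). With no limit on distance, 18 of 68 no Dox domains were gained and 18 of 68 progenitor domains lost at them. Tbx3 had 4 lost domains. For 28 genes of the caudal epiblast and of axial timing, 15 had a lost and 9 a gained domain, and 18 of 107 progenitor domains were lost, 16.8% (10.9 to 25.0), of which 14 were held by no induced list. The interval of the pluripotency list begins above the 13.2% of all genes, and that of the caudal list spans it.

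Of the remaining lists, ion channels and spinal interneuron factors had shares of lost domains whose intervals began at 13.7%, above the share of all genes. With a TSS within 20 kb the share lost was 14.0% (7.29 to 25.3) for ion channels, an interval that spans the 9.63% of all genes. For spinal interneuron factors it was then 22.1% (14.3 to 32.5). Within 100 kb, the shares gained and lost were 23.1 and 13.1% for 24 genes of forebrain and midbrain, 22.6 and 20.2% for 35 ion channels and receptors, 20.95 and 20% for 28 factors of spinal interneurons, 19.7 and 14.3% for 19 genes of glia and neural crest, 17.9 and 16.6% for 40 axon guidance genes, 16.5 and 16.3% for 35 genes of other germ layers, and 11.1 and 7.69% for 34 ribosomal protein genes. Of Hox genes of paralog groups 1 to 5, 7 of 15 had a gained and 2 a lost domain, with 14 of 75 no Dox domains gained. Hoxb3 had 5 gained and Hoxa2 3 gained and no lost domains, whereas Hoxb1 had 2 lost and none gained, and no no Dox domain of 150 bp or wider was assigned to it. Of 24 Hox genes of groups 6 to 13, 3 had a gained and 1 a lost domain.

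**Figure D4:**
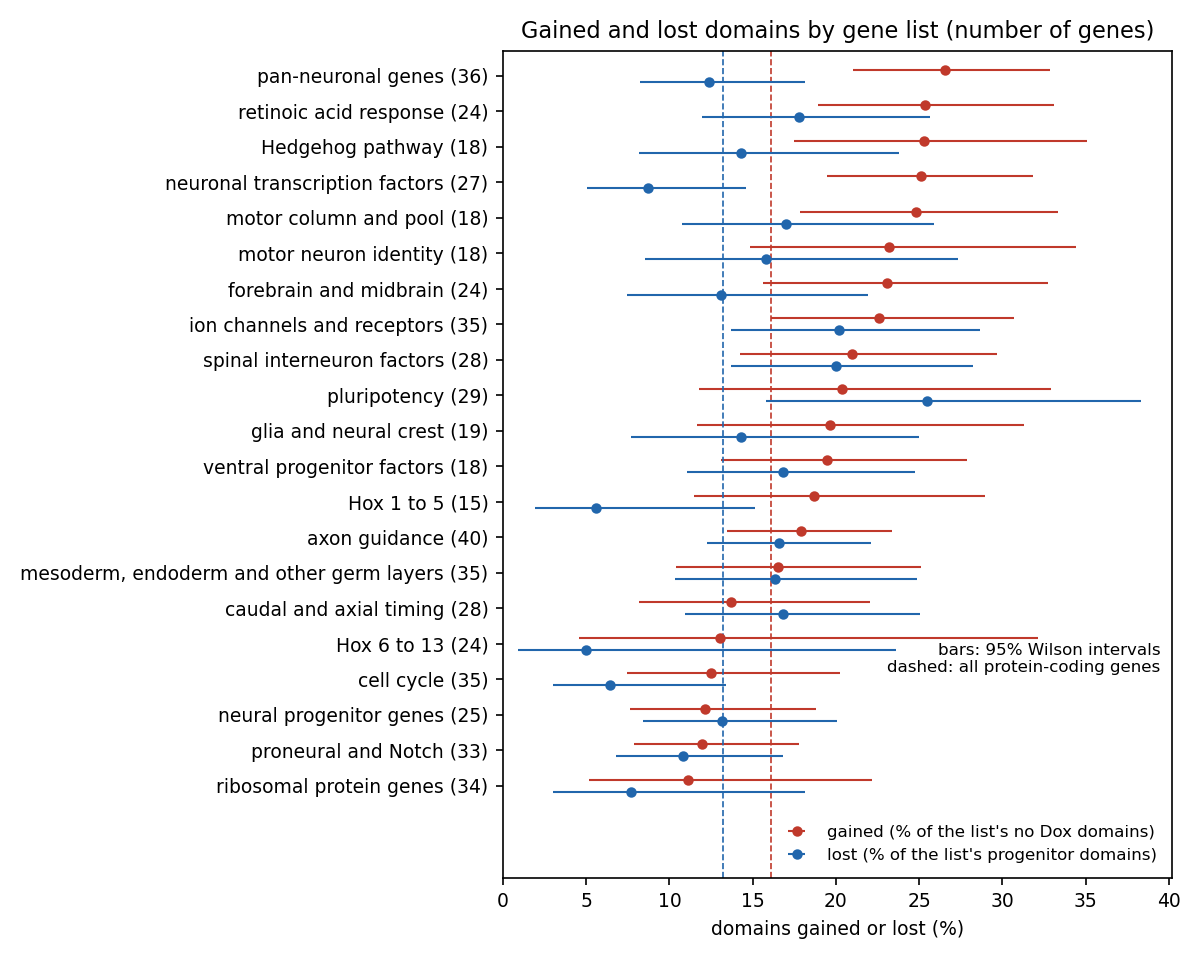
Percent of the no Dox domains that were gained (red) and of the progenitor domains that were lost (blue) at the genes of each list, with the number of genes in parentheses, 95% Wilson intervals, and the shares over all protein-coding genes as dashed lines. Pan-neuronal genes and neuronal transcription factors lie above the dashed line for gained domains with intervals that do not reach it, as do the RA response, Hedgehog pathway and motor column lists. With a TSS within 20 kb the intervals of the pan-neuronal (11.2 to 25.7%), motor column (11.3 to 28.6%) and Hedgehog (9.31 to 28.0%) lists span the 11.7% of all genes.

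At promoters, complete changes were rare. A promoter counted as closed where it had a progenitor domain of 150 bp or wider, no domain of any width without Dox, and only lost domains among the former, and as newly opened in the reverse case. Of 13490 protein-coding genes with such a progenitor domain, 199 (1.48%) closed, and 68 of these had no promoter domain in any induced list. In the other direction 77 of 13290 genes (0.579%) newly opened, of which 42 had a promoter domain in at least 2 induced lists and 22 in none. EBs held a promoter domain at 166 of the 199 closed and 42 of the 77 newly opened promoters. Another 9 and 21 genes met the widths alone, but their domain overlapped one of the other list just outside the 1 kb window, and they were left out.

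Among the listed genes 9 closed promoters are described. Most belong to regional transcription factors. Barhl1, a factor of dorsal interneurons, had a promoter domain of 476 bp in EBs and 324 bp in progenitors, and none in the 4 day 4 lists. Prdm12, a factor of p1 progenitors and sensory neurons, had 90 bp in EBs, 570 bp in progenitors and none at day 4. Foxn4, a factor of p2 progenitors, had 647 bp in EBs, 789 bp in progenitors, 213 bp in iHoxc6 and none in the other 3 day 4 lists. The dorsal gene Zic4 had 221 bp in progenitors, 0 bp without Dox and 30 bp in iHoxc9, and Pax3 had 153 bp, 0 bp and 56 bp in iHoxc6. These 4 progenitor genes, Prdm12 and Foxn4 among 15 open ventral progenitor promoters and Zic4 and Pax3 among 24 open neural progenitor promoters, were 13.3 and 8.33% of their lists, against 1.48% of all genes. The pluripotency genes Fgf4 and Zfp42 had 669 and 336 bp in EBs, 226 and 181 bp in progenitors and 0 bp in each day 4 list, so their domains were narrower at each stage. Cer1, an antagonist of Nodal and BMP, had 191 bp in progenitors and none in any other list. Crabp1 had 380 bp in progenitors and 0 bp without Dox but 370 bp in iHoxc6, 143 bp in iHoxc9 and 361 bp in iHoxc10.

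At other genes a narrow domain remained. The promoter domain of Cdx2, a caudal homeobox gene, was 822 bp wide in EBs, 249 bp in progenitors and 44 bp without Dox, and absent from the induced lists. Lbx1, of dorsal interneurons, had 599 bp in EBs, 429 bp in progenitors and 144 bp without Dox, and none in the induced lists.

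Newly opened promoters among listed genes were those of Dlx5 and Krt8. Dlx5, a homeobox gene of forebrain interneurons, had 441 bp without Dox, 135 bp in iHoxc9 and 66 bp in iHoxc10, and it had 611 bp in EBs. Krt8, an epithelial keratin, had 289 bp in EBs, 265 bp without Dox and none in the other 4 lists. None of the pan-neuronal genes or neuronal transcription factors met the rule for a newly opened promoter. Some had a gained domain beside another promoter domain. That of Tubb3, 449 bp at chr8:123410127-123410575, lay 849 bp from the TSS and was held by all 3 induced lists but not by EBs. That of Nhlh1, a bHLH gene of newborn neurons, 411 bp wide, lay 788 bp from the TSS and was held by all 3 induced lists, and the widest promoter domain of Nhlh1 was 108 bp in progenitors and 568 bp without Dox.

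**Figure D5:**
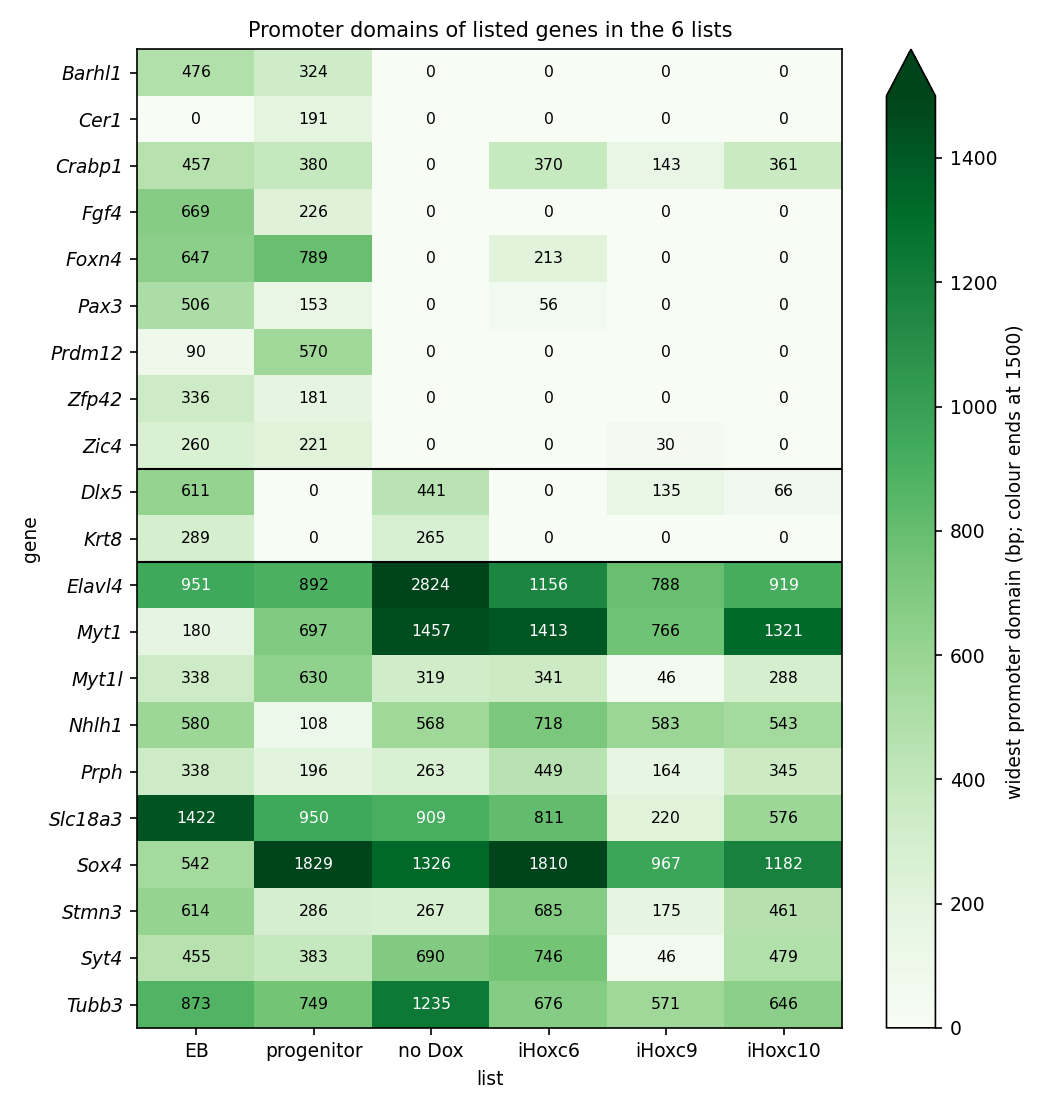
Width in bp of the widest domain within 1 kb of a TSS in each of the 6 lists, printed in each cell and shaded to 1500 bp, for the listed genes whose promoter closed (top, 9 genes) or newly opened (middle, 2 genes) between progenitors and no Dox, and for neuronal genes with a gained promoter domain (bottom, 10 genes). Most of the 9 closed promoters were also at or near 0 in the induced lists, with Crabp1 as the main exception.

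Ranked over all protein-coding genes, those with the most gained domains were Prl2c3 (19 domains), Bach2 (13), Pde4d (11), Hjurp (10) and Nrxn3 (9), followed by Ank3, Auts2, Dst, Ebf3 and Tspan5 with 8 each. Bach2 encodes a transcriptional repressor, Pde4d a cAMP phosphodiesterase, Ank3 the ankyrin of the axon initial segment and Dst a cytoskeletal linker. Of the 8 gained domains of Auts2, 7 were held by at least 2 induced lists, and of the 8 of Ank3, 6 were. Prl2c3 and Hjurp differ from these. The 19 domains at Prl2c3, a member of a family of near-identical prolactin genes, lay within 99.8 kb on chromosome 13, 9 of them were over 50% repeats, and 5 were held by at least 2 induced lists. The 10 domains at Hjurp lay within 19.9 kb on chromosome 1 and 1 was held by at least 2 induced lists. The part of repeats and of gene copies in these counts was not tested.

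Genes with the most lost domains had fewer of them. Celf2, an RNA-binding protein, and Pde4b, a cAMP phosphodiesterase, had 6 each, and Kcnip4, Klf12, Macf1, March1, Mecom, Nrxn3, Pde4d, Ppp1r9a, Psd3, Sema6d and Tead1 had 5 each. Of the 6 lost domains of Celf2, 5 were held by no induced list, and all 5 of Kcnip4, which binds potassium channels, were. Klf12, Macf1, March1, Ppp1r9a and Tead1 had no gained domain. Nrxn3 and Pde4d stood in both rankings, with 25 and 27 no Dox domains, and both classes were thus found at the same gene.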

How the data were processed

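ATAC-seq of 12 samples in 6 groups was used, with 2 samples per group. Per the submitters' processing notes, reads were handled with Bowtie2 2.2.2 and Picard 2.8.2 on mm10. The authors called domains with DomainFinder and deposited 1 list per group, made from both samples, as start and end coordinates in bp, another kind of value than a count or a height. Read depth is therefore unknown, and 1 list per group allows no test. A constant column of the control list was not used. Starts were read as in BED, so that positions may be off by 1 bp.

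The autosomes, X and Y were analysed with Python 3.11.15, NumPy 2.4.6, pandas 2.3.3 and Matplotlib 3.10.9. Those within 1 kb of a TSS of a protein-coding gene (GENCODE M21) were called promoter domains, and others exonic, intronic or intergenic. Motifs were counted as exact matches on both strands in the central 150 bp, and in windows of that length 2 kb to each side. The code for overlaps, distances and motif matching on both strands was tested on simulated data with 35 checks, of which 0 differed. Most of these checks were of motif patterns, and none was of the classes themselves.

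The members and the gene and motif lists were chosen with earlier results of these data known. Named genes were up to 5 per list with the most gained or lost domains, those with a gained or lost promoter domain, the 10 with the most domains of each class (and 3 more lost ones tied with the last), and the 5 widest domains of each class. Some genes that met this rule are not reported here. Other listed genes named here, the sequences shown per motif and the rule on promoters with a domain just outside the window were chosen after their values were seen. Other widths, overlaps, list lengths, promoter lengths, distances to genes and sets of domains were tried.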

Additional observations from a re-analysis of the deposited data

How the results depend on the processing

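No paired analysis was possible because each list was made from both replicates of its group, and for the same reason no replicate could be left out. The ratios of the 10 marked motifs kept their direction in each alternative. In distal windows of 40 to 50% GC this was fixed beforehand, as motifs were marked only where the ratio held there. Among the other motifs, the GC box (1.30), AP-1 (0.986), Zic (0.985), Gata (1.10), Tcf/Lef (1.10) and the Myc E-box (1.02) crossed 1 in those windows. Nrf1, POU, Klf and Fox motifs crossed 1 in another alternative. Of the ratios of the marked motifs 26 stayed within the interval of the value reported and 14 moved, and of the gene list shares 72 stayed and 16 moved. The causes were not tested. The number of gained domains was 2924 with a minimum width of 300 bp, 787 with 500 bp and 17135 where a domain was shared only if 50% of it was covered, and the number of lost domains was 1865, 321 and 12409 in the same order. With both lists cut to their 41544 widest domains, 12807 domains were gained (30.8%) and 12400 lost (29.8%). This cut also removed the domains under the minimum width from the list compared against, which the main rule counts as overlap. Only such narrow domains had kept 6549 no Dox and 4577 progenitor domains. The part of list length apart from this change of overlap was not tested. The share of gained domains held by at least 2 induced lists was 64.7% from 300 bp, 79.9% from 500 bp and 51.9% where a domain within 500 bp counted as shared, and the share of lost domains held by none was 55.5, 49.8 and 60.5%. The share at promoters was 16.3% for gained and 15.3% for lost domains with a promoter of 5 kb, and 4.89 and 7.40% from 300 bp.

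With a TSS within 20 kb, the share gained was 11.7% for all genes, 19.3% for neuronal transcription factors, 17.3% (11.2 to 25.7) for pan-neuronal genes, 13.6% for ion channels, 16.7% (9.31 to 28.0) for the Hedgehog pathway, 7.69% for caudal and 6.45% for pluripotency genes. The share lost was 9.63% for all genes, 10.0% for motor columns, 7.37% for pan-neuronal genes, 8.77% for axon guidance, 5.66% for the Hedgehog pathway and 1.39% for the cell cycle. With no limit on distance, 19.1% of all domains were gained and 16.0% lost, and 24.8% were lost for axon guidance. For domains gained in all 3 and lost in 0 induced lists, an alternative chosen after seeing the data, the gained-to-lost ratio was 2.35 for CAGCTG, 1.86 for CAGATG, 2.95 for Ebf, 0.250 for Tead, 0.266 for Gli and 3.75 for Cdx. For domains in 0 induced lists it was 1.66 for CAGCTG, 1.48 for CAGATG, 1.495 for Onecut, 1.36 for Ebf, 0.532 for Tead and 1.31 for Cdx. For distal domains with 40 to 50% GC it was 2.2 for Ebf and 0.316 for Sox. Without domains over 50% soft-masked, also chosen after seeing the data, 8320 were gained and 6338 lost.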

Other observations

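The motif of Esrrb, a nuclear receptor of embryonic stem cells, was too rare for the comparison of motifs. It was found in 42 gained and 11 lost windows, 0.489 and 0.166%, a ratio of 2.95 (1.52 to 5.73).

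Of kept no Dox domains, 6549 (17.9%) overlapped only progenitor domains narrower than 150 bp, and 4577 kept progenitor domains (13.1%) overlapped only no Dox domains narrower than that. These count as kept under the rule although the other list held them at a width under its limit.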
